A study of Mus musculus with 24 samples.

Results

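High-fat feeding was compared with normal chow in the livers of wild type (WT) female C57BL/6 mice. WT mice fed for 10 weeks on a diet with 60% fat (HFD) gave 3 libraries and WT mice on normal chow (ND) gave 3. These 6 libraries, chosen by their titles, are part of 24 liver RNA libraries in 8 groups of 3 formed by sex, genotype and diet. The series asks how the Cyp2b enzymes, a family of cytochrome P450 monooxygenases, bear on diet-induced obesity. Cyp2b-null mice lack Cyp2b9, Cyp2b10 and Cyp2b13. Cyp2b-null females on HFD and on ND and WT males on HFD and on ND, 3 libraries each, serve here to show where the diet difference recurred. The age of the mice is not given in the sources used here, and nothing there says that the 3 libraries of a group are 3 animals; the p-values then rest on library-to-library spread only, which may be technical.

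The liver takes up dietary fatty acids, oxidises them in mitochondria and peroxisomes, and exports the rest as lipoproteins. The nuclear receptor PPARα, activated by fatty acids, switches on genes of oxidation and ketone body production. The receptors CAR and PXR control enzymes that clear drugs and steroids. A circadian clock, which feeding can shift, drives daily rhythms in many of these genes through transcription factors such as DBP.

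Deposited counts per gene summed to 2.24 to 2.66 M in the WT HFD libraries and to 2.01 to 2.31 M in the WT ND libraries, so low transcripts were measured with little precision. Of 46068 genes in the female table, 11830 passed a filter on low counts and were tested. Levels are CPM, counts scaled to library size with TMM factors, and differences are log2 values ± SE, HFD minus ND, from edgeR's quasi-likelihood test over the 12 female libraries. The genotype given as a characteristic contradicts the title in 6 female libraries, among them all 3 of WT HFD, and titles were followed. Cyp2b13 had 627, 565 and 1096 counts in the libraries titled WT HFD and 1138, 905 and 675 in those titled WT ND, against 0 in every library titled Cyp2b-null. Hepatocyte markers were all measured (15 of 15), with summed levels of 116200 to 120600 CPM in WT HFD and 117300 to 136400 CPM in WT ND. Library 1 stood apart in both WT groups: mitochondrially encoded genes took 8.54% of WT HFD 1 and 13.96% of WT ND 1, against at most 5.56% of the other 4. On the first principal component of the 12 female libraries (29.2% of the variance) both lay on the smaller of its 2 sides, so results are also given for libraries 2 and 3 alone.

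Dbp rose and Dock6 fell in WT females on HFD, and no other gene passed the test at an adjusted p below 0.05. These 2 genes are 0.0169% of those tested, 0.00845% in each direction. At an unadjusted p below 0.05 there were 412 genes (3.48%), 197 higher (1.67%) and 215 lower (1.82%). The median difference over all genes was -0.00, with 5873 of 11830 higher on HFD. DESeq2 called 23 genes (0.194%). Same-numbered WT female libraries deviated together, clearly so only for number 1 (r = 0.564, against 0.139 and 0.278 for numbers 2 and 3). Differently numbered pairs reached 0.319 and 0.22, so the pairing is uncertain. The replicate number was also used as a block, which called 0 genes (0%) over the 12 female libraries and 15 (0.135%) over the 6 WT libraries alone. Without a block those 6 gave 0.

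**Figure D1:**
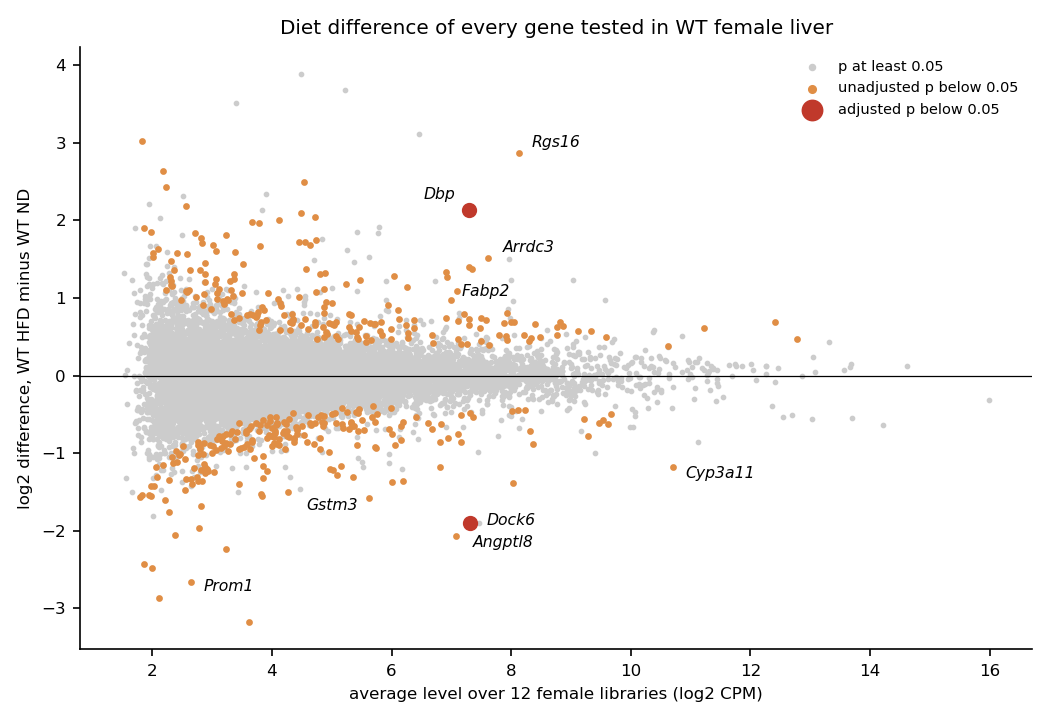
Log2 difference, WT HFD minus WT ND females, of each of the 11830 genes tested (vertical axis) against its average level over the 12 female libraries in log2 CPM (horizontal axis). The 2 red points are Dbp, higher by 2.14, and Dock6, lower at -1.90; orange points have an unadjusted p below 0.05.

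Dbp (chr7:45705088-45710203, forward strand, GRCm38, GENCODE M21) encodes the D-box binding protein, a transcription factor that carries the clock's rhythm to its target genes. It had 168.5, 89.7 and 154.4 CPM in WT HFD, against 26.0, 45.0 and 23.1 CPM in WT ND. All 3 HFD libraries lay above all 3 ND libraries. Dbp rose by 2.14 ± 0.29 (4.40-fold, 95% interval 1.52 to 2.75 on the log2 scale; edgeR adjusted p = 0.0242). Leaving out any 1 of WT ND 1, WT ND 3 and WT HFD 3 ended the call (edgeR adjusted p = 0.0511, 0.275 and 0.157). So did the block over 12 libraries (0.102) or over the 6 WT libraries alone (0.244), and the fit of libraries 2 and 3 alone (1.85, adjusted p = 0.434).

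Dock6 (chr9:21799860-21852635, reverse strand) encodes a guanine nucleotide exchange factor for the small GTPases Rac1 and Cdc42. Its levels were 117.9, 73.0 and 64.8 CPM in WT HFD and 273, 321 and 359.5 CPM in WT ND. The groups did not overlap. Dock6 fell by 1.90 ± 0.29 (3.73-fold lower, 95% interval -2.51 to -1.29; edgeR adjusted p = 0.0448). It stayed called in libraries 2 and 3 alone (-2.30, adjusted p = 0.000160) and with the block over the 6 WT libraries (0.00916), and was lost with the block over 12 libraries (0.102), with RLE scaling (0.0533) and without any single WT library other than WT HFD 1 (0.0511 to 0.394).

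Each called gene overlaps a neighbour on the other strand, and whether the counting used strand is not given in the sources used here. Angptl8 (chr9:21835510-21837347, forward strand), which encodes an insulin- and feeding-induced inhibitor of lipoprotein lipase made in liver and fat, lies wholly inside Dock6, though the 2 genes share 0 exonic bases in this annotation. Angptl8 had 107.8, 52.1 and 40.04 CPM in WT HFD, against 219, 307 and 314 CPM in WT ND, again with no overlap (-2.07 ± 0.36, edgeR adjusted p = 0.121, not called). It was called in libraries 2 and 3 alone (-2.75, edgeR adjusted p = 9.62e-05) and by DESeq2 (4.56e-05). Its counts were 61.8% to 91.5% of those of Dock6 in WT HFD and 80.3% to 95.6% in WT ND. Dock6 counts less Angptl8 counts were 26, 50 and 60 in WT HFD and 116, 28 and 109 in WT ND, which overlap. In WT males Angptl8 counts were 49.5% to 227% of those of Dock6 on HFD and 108% to 262% on ND. Dock6 counts less Angptl8 counts there ran from -1035 to 205 on HFD and from -998 to -45 on ND. Whether reads of one gene were counted for the other was not tested.

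Sphk2 (chr7:45709467-45718002, reverse strand), a sphingosine kinase, shares 539 exonic bases with the 3' end of Dbp. Sphk2 had 182, 98.4 and 120.1 CPM in WT HFD, against 83.5, 60.5 and 44.6 CPM in WT ND. Its groups did not overlap, and it did not pass the test (1.09 ± 0.27, edgeR adjusted p = 0.485). It was called with the block over the 6 WT libraries (0.0457) and the block within each genotype (0.0396), where Dbp was not (0.244 and 0.0532). Adjusting for the library sides also gave a call (0.00971). Dbp counts were 436, 215 and 374 in WT HFD and 56, 90 and 55 in WT ND, while Sphk2 counts were 471, 236 and 291 in WT HFD and 180, 121 and 106 in WT ND. In WT males Dbp differed by 1.01 ± 0.44 and Sphk2 by -0.28 ± 0.29 (unadjusted p = 0.0395 and 0.348 in edgeR, neither called). Whether the neighbours differed from each other there was not tested, and the library kit goes with sex.

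**Figure D2:**
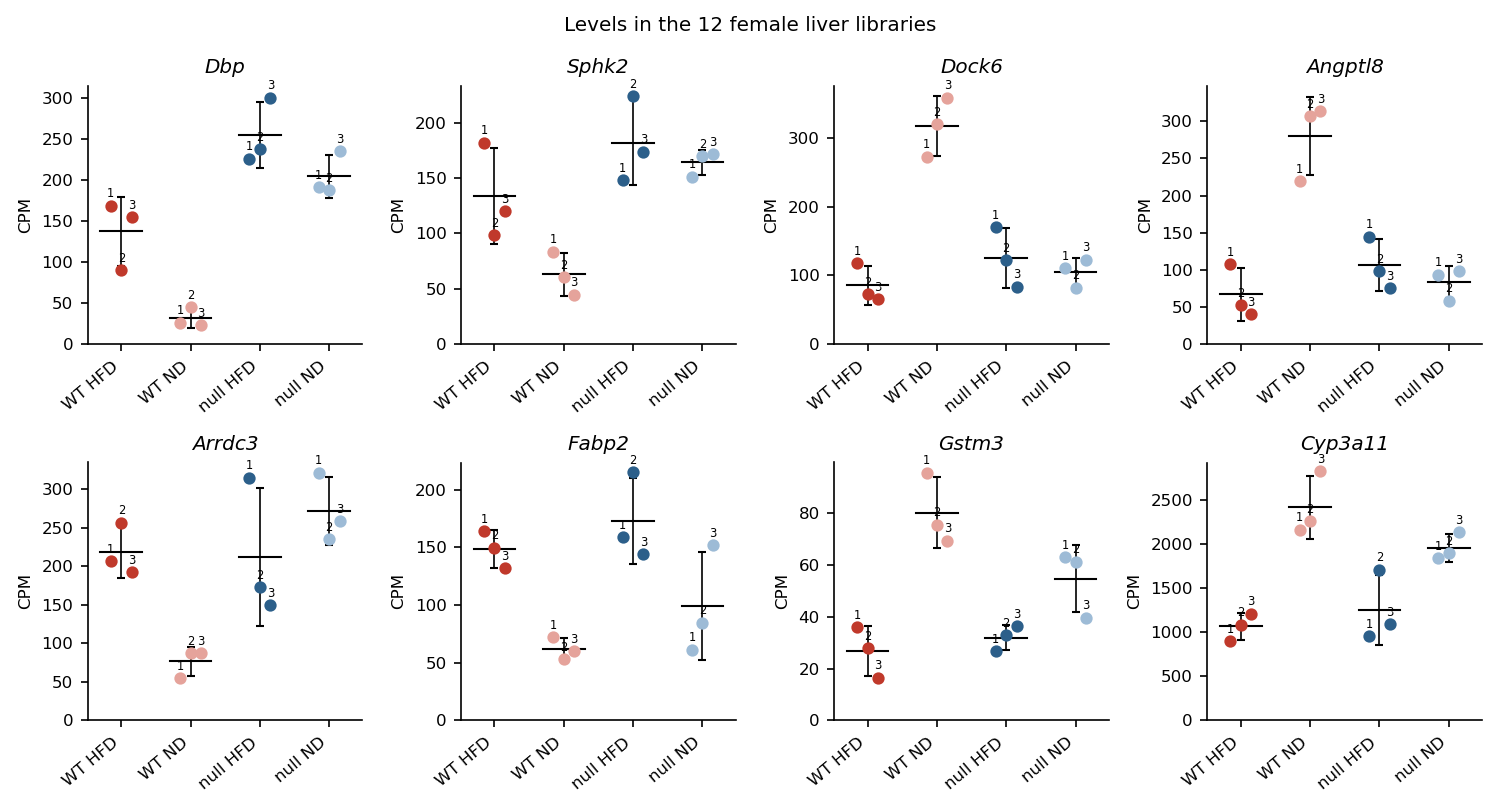
Levels in CPM (vertical axes) of 8 genes in the 3 libraries of each female group, WT HFD, WT ND, Cyp2b-null (null) HFD and null ND, with the replicate number beside each point, the mean as a line and the SD as a bar. WT ND lies below the other 9 libraries for Dbp, Sphk2 and Arrdc3 and above them for Dock6, Angptl8, Gstm3 and Cyp3a11.

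Time of day of collection and feeding state entered no fit, so whether they differed between the diet groups was not tested. The clock genes around Dbp were described from lists of 16 tested core clock members and 20 tested output members. For these genes the promoters of Dbp and Per3 are shown as RefSeq sequence (GRCm38.p6). Each window runs from 250 bases before to 50 after the start site used for it. For Dbp that site is not the GENCODE M21 start given above (45705088). The GENCODE start lies inside the Dbp window, whose later bases therefore fall within the gene as annotated there. Capitals mark the D-box letters TTATGTAA, the element DBP binds, searched on both strands.

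Per3 promoter, chr4:151044616-151044915, reverse strand: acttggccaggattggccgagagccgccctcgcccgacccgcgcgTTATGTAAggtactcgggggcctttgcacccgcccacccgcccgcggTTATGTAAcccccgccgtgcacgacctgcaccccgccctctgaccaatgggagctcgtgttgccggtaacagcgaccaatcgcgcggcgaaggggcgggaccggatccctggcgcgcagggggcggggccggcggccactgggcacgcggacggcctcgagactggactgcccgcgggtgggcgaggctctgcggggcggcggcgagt
Dbp promoter, chr7:45704997-45705296, forward strand: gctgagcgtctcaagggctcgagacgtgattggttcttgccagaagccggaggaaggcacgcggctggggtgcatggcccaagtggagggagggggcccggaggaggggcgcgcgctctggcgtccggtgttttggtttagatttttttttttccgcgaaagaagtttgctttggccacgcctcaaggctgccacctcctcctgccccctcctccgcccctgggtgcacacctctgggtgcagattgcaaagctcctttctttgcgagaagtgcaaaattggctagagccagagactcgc

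The Per3 window holds the D-box letters 2 times, the first starting 205 bases before the start site, and the Dbp window 0 times. Of 32851 promoters, 308 (0.938%) hold them. The E-box letters CACGTG, bound by CLOCK and BMAL1, are in neither window and in 7.15% of all promoters; the 2 motifs do not overlap. Among tested genes with a promoter in the table (8562), the 66 with D-box letters had a median difference of -0.02, with 32 higher, against -0.01 over all 8562. The motifs were chosen after the values were seen.

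Per3, a period protein of the clock's negative arm, had 6.96, 8.34 and 10.7 CPM in WT HFD and 1.39, 3.50 and 1.68 CPM in WT ND. The groups did not overlap, at a level of few counts (1.98 ± 0.43, edgeR adjusted p = 0.303). Arntl, which encodes BMAL1, the partner of CLOCK in the positive arm, had 1.55, 4.59 and 2.48 CPM in WT HFD, against 7.42, 19.0 and 9.67 CPM in WT ND. It was low in every HFD library (-2.05 ± 0.62, edgeR adjusted p = 1.0).

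Rgs16, a regulator of G protein signalling with a daily rhythm in liver, had 132.6, 170.6 and 470.1 CPM in WT HFD and 23.2, 48.0 and 34.5 CPM in WT ND. This was the widest gap among the clock output genes (2.87 ± 0.55, edgeR adjusted p = 0.271), with library 3 far above the other HFD libraries. Tef, a relative of Dbp that binds the same element, had 142.6, 108.4 and 173.8 CPM in WT HFD, against 84.9, 98.0 and 62.2 CPM in WT ND (0.80 ± 0.23, edgeR adjusted p = 0.993). Neither group pair overlapped.

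Across the lists, 15 of 20 clock output genes were higher on HFD, with 1 (Dbp) called. At an unadjusted p below 0.05 there were 8 higher and 3 lower, against 1.67% and 1.82% of all genes. The median was 0.56 (0.63 in libraries 2 and 3 alone, 0.35 between the libraries numbered 1), against -0.00 over all genes. The 3 lower members were Leo1, Avpr1a and Cys1 (-0.94, -0.69 and -1.33). Of the core clock genes 11 of 16 were higher, with a median of 0.12 and 1 each way at that p. Nr1d1, which encodes the repressor REV-ERBα, had 138.4, 155.1 and 111.9 CPM in WT HFD and 93.7, 144.9 and 100.5 CPM in WT ND, which overlap.

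**Figure D3:**
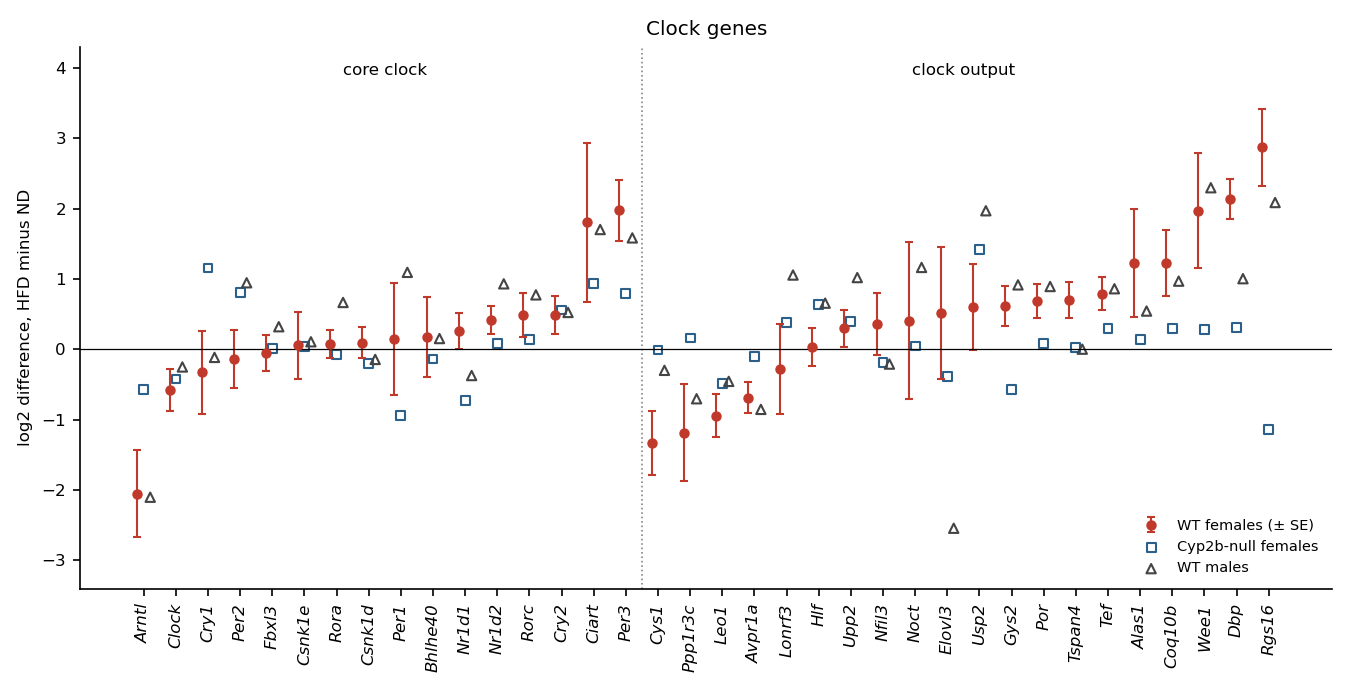
Log2 differences, HFD minus ND (vertical axis), of the tested core clock and clock output genes (horizontal axis, ordered by the WT female value) in WT females with SE, Cyp2b-null females and WT males. Arntl, Per3, Rgs16 and Dbp lie on the same side of 0 in WT females and WT males.

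The targets of PPARα and the enzymes of fatty acid oxidation had 42 of 46 tested members higher on HFD, with a median of 0.33 (0.31 in libraries 2 and 3 alone, 0.42 between the libraries numbered 1). None passed the test. At an unadjusted p below 0.05 there were 11 higher and 1 lower, against 1.67% and 1.82% of all genes. In 17 members all 3 HFD libraries lay above all 3 ND libraries, and in 0 the reverse, against 460 (3.89%) and 470 (3.97%) of all genes, 7.86% in either direction. Their summed level was 13160, 13360 and 16860 CPM in WT HFD and 9501, 11360 and 12300 CPM in WT ND, with no overlap.

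Ppara, the receptor itself, had 225, 229 and 295.5 CPM in WT HFD, against 142.4, 163 and 161.5 CPM in WT ND (0.68 ± 0.20, unadjusted p = 0.00429 in edgeR). Cpt1a, the rate-limiting carnitine palmitoyltransferase that admits fatty acids to mitochondria, had 216, 287 and 293.5 CPM in WT HFD and 126.6, 184.4 and 182 CPM in WT ND. For both genes the groups did not overlap and the adjusted p did not pass. Vnn1, a pantetheinase, had 77.3, 70.1 and 88.3 CPM in WT HFD, against 28.7, 33.5 and 44.2 CPM in WT ND (1.14 ± 0.37). Other members did not share the difference: the peroxisome proliferator marker Cyp4a14 had 285, 409 and 811 CPM in WT HFD and 246, 386 and 855 CPM in WT ND (0.02 ± 0.61), and Cyp4a10 differed by -0.09 ± 0.48.

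Fatty acid binding and uptake genes differed in both directions. Fabp2, a fatty acid binding protein best known from intestine, had 164.3, 149.7 and 131.7 CPM in WT HFD and 71.9, 53.0 and 59.7 CPM in WT ND (1.27 ± 0.29, edgeR adjusted p = 0.303). Fabp1, the main liver fatty acid binding protein, had 5867, 5782 and 4440 CPM in WT HFD, against 3463, 2656 and 3863 CPM in WT ND (0.69 ± 0.32). Cd36, a fatty acid translocase, had 28.2, 48.8 and 69.8 CPM in WT HFD and 89.0, 88.5 and 83.3 CPM in WT ND (-0.83 ± 0.36). None of these groups overlapped and none of the 22 tested members passed; 13 were higher.

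Plin2, which coats lipid droplets, had 333, 319 and 362 CPM in WT HFD and 201, 221 and 293 CPM in WT ND (0.50 ± 0.20, unadjusted p = 0.0258 in edgeR). Cidec, a droplet fusion protein known from steatotic liver, had 2.32, 1.67 and 3.30 CPM in WT HFD and 3.71, 4.50 and 2.10 CPM in WT ND, at few counts in every library. Of 21 tested droplet and lipolysis genes 15 were higher (median 0.13).

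Genes of fatty acid and triglyceride synthesis had 15 of 26 members higher (median 0.03). Scd1, the stearoyl-CoA desaturase, had 4158, 4421 and 3685 CPM in WT HFD and 4340, 4089 and 4331 CPM in WT ND (-0.06 ± 0.21, overlapping). Fads1, the delta-5 desaturase of polyunsaturated fatty acids, had 698, 680 and 753 CPM in WT HFD, against 456, 508 and 470.1 CPM in WT ND, with no overlap (0.57 ± 0.17, unadjusted p = 0.00456 in edgeR). Of the genes of cholesterol synthesis and uptake 4 of 25 were higher (median -0.23), and none reached an unadjusted p below 0.05. Their median was -0.05 in libraries 2 and 3 alone and -0.67 between the libraries numbered 1.

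Among targets of CAR and PXR and other xenobiotic enzymes 7 of 40 tested members were higher (median -0.20; -0.35 in libraries 2 and 3 alone). None passed the test. At an unadjusted p below 0.05 there were 1 higher and 10 lower, against 1.67% and 1.82% of all genes. Gstm3, a glutathione transferase, had 35.9, 27.9 and 16.5 CPM in WT HFD, against 95.5, 75.5 and 69.4 CPM in WT ND (-1.58 ± 0.28, edgeR adjusted p = 0.115). Cyp3a11, the main PXR-induced steroid and drug hydroxylase, had 900.2, 1086 and 1209 CPM in WT HFD and 2165, 2258 and 2827 CPM in WT ND (-1.18 ± 0.23, edgeR adjusted p = 0.208). Both genes had every HFD library below every ND library. Cyp3a59 and Cyp3a25 also did so (-1.37 and -0.78), though reads of Cyp3a and Gstm paralogues can be split between them. Por, the reductase that feeds electrons to all of these P450 enzymes, went the other way, with 330, 312 and 562 CPM in WT HFD and 201, 310.4 and 235 CPM in WT ND (0.69 ± 0.24).

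The Cyp2b genes that the series is about did not pass. Cyp2b9 had 305, 358 and 514 CPM in WT HFD and 394, 500.3 and 457 CPM in WT ND (-0.20 ± 0.32). Cyp2b13 had 242, 236 and 452 CPM in WT HFD and 528, 452 and 284 CPM in WT ND (-0.44 ± 0.31). Cyp2b10, the CAR-induced member, had 6.96, 5.84 and 40.04 CPM in WT HFD and 15.8, 46.0 and 32.4 CPM in WT ND (-0.83 ± 0.74). All 3 overlapped between the diets.

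**Figure D4:**
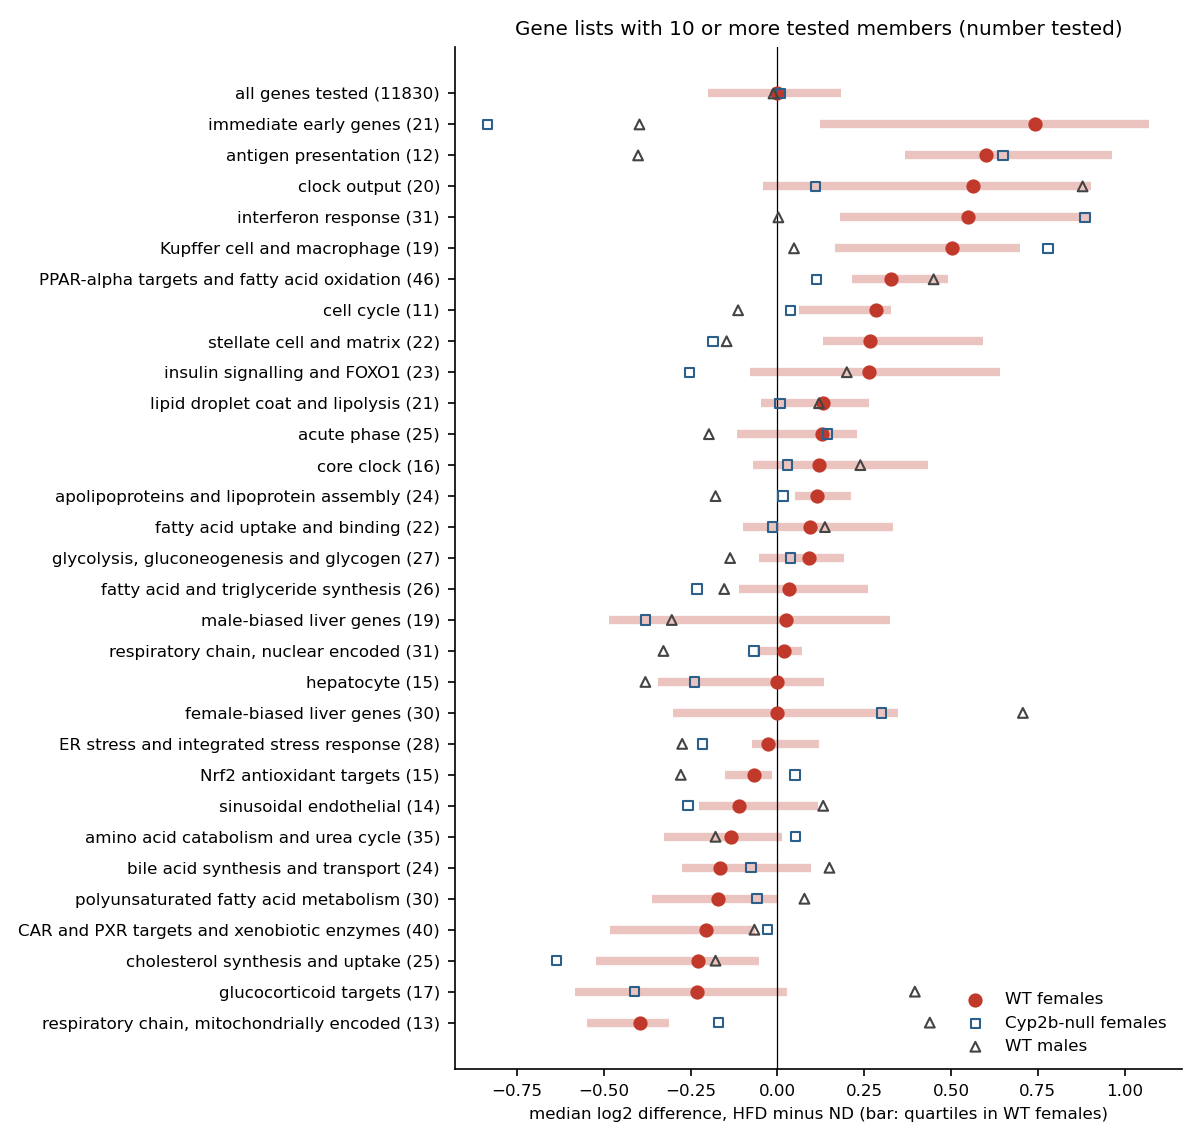
Median log2 difference, HFD minus ND (horizontal axis), of gene lists with 10 or more tested members (rows, with the number tested) in WT females, Cyp2b-null females and WT males; bars span the quartiles in WT females, and male medians include members below 1 CPM. In WT females the list medians run from -0.40 for mitochondrially encoded genes to 0.74 for immediate early genes.

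The 10 largest differences in each direction among genes with an unadjusted p below 0.01, a mean level of 3 or more in log2 CPM and non-overlapping groups also held genes outside these lists. Arrdc3, an arrestin-domain protein whose loss in mice raises energy expenditure, had 206.8, 257 and 193 CPM in WT HFD, against 55.2, 87.0 and 87.5 CPM in WT ND (1.51 ± 0.28, edgeR adjusted p = 0.147). Chka, a choline kinase of phosphatidylcholine synthesis, had 34.8, 38.0 and 25.6 CPM in WT HFD and 99.7, 68.0 and 75.3 CPM in WT ND (-1.30 ± 0.27, edgeR adjusted p = 0.227). Neither gene's groups overlapped. Serpina3g, Nrep, Gsn (the actin-severing gelsolin), Rassf4 and Tgm1 (a transglutaminase) had differences of 1.81, 1.75, 1.38, 1.38 and 1.32. Itga5 (an integrin chain), Tubb2a (a beta-tubulin), Col5a3 (a collagen chain) and Sdr9c7 had differences of -1.50, -1.36, -1.31 and -1.20. None of these 9 passed, with edgeR adjusted p-values from 0.211 to 1.0. Gapdh, a glycolytic enzyme with many processed pseudogenes that can share its reads, was at 4.54 to 10.8 CPM in WT HFD and 16.2 to 32.5 CPM in WT ND.

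Of the genes left uncalled, Arrdc3 (higher) and Gstm3 (lower) were called in 5 of 7 other fits picked for this count: DESeq2, the block over the 6 WT libraries, the block within each genotype, the term for the library sides, and libraries 2 and 3 alone. These 5 called 0.194%, 0.135%, 0.0676%, 0.127% and 0.0808% of genes. The block over 12 libraries and the 6 WT libraries without a block called 0%, with adjusted p-values of 0.28 and 0.335 for Arrdc3 and 0.13 and 0.439 for Gstm3 in edgeR. Chka, Cyp3a11, Fabp2 and the clone 4933405D12Rik were called in 4 of the 5, as was Dock6, and Dbp in 2. Fits outside this count went both ways. With no filter 39 of 24203 genes were called. Leaving out 1 library gave edgeR adjusted p-values of 0.0456 to 0.469 for Gstm3 and 0.182 to 0.507 for Arrdc3. RLE and upper-quartile scaling called Dbp alone (edgeR adjusted p = 0.0261 and 0.0242). A filter of at least 10 counts in every library called only Dbp and Dock6 (edgeR adjusted p = 0.0203 and 0.0446). Prom1, a membrane glycoprotein of progenitor and bile duct cells, was called in 3. It had 2.32, 2.50 and 2.06 CPM in WT HFD, against 10.7, 13.5 and 20.2 CPM in WT ND (-2.66 ± 0.43, edgeR adjusted p = 0.0580), at few counts.

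The WT ND libraries stood outside the range of the other 9 female libraries for many of these genes. Of the 10 largest rises, 7 had all 3 WT ND libraries below the WT HFD and the 6 Cyp2b-null libraries, and of the 10 largest falls, 7 had them above. Over all genes tested, 112 (0.947%) lay below in this way and 115 (0.972%) above. These lie within the 460 and 470 genes whose WT HFD libraries were all above or all below WT ND. The naming rule itself required that WT HFD and WT ND not overlap, so the shares over all genes are not a baseline for the named ones. Dbp was at 23.1 to 45.0 CPM in WT ND and at 89.7 to 300.2 CPM in the other 9 libraries. Dock6 was at 273 to 359.5 CPM in WT ND and at 64.8 to 170.1 CPM in the others. Prom1 was at 10.7 to 20.2 CPM in WT ND, against 1.30 to 5.10 CPM in the others.

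Cyp2b-null females, which share no library with the WT groups, gave 0 genes called for HFD against ND in edgeR (0%; 568 genes, 4.8%, at an unadjusted p below 0.05, and 3 called by DESeq2). Dbp had 226, 238 and 300.2 CPM in Cyp2b-null HFD and 191, 188 and 234.5 CPM in Cyp2b-null ND (0.32 ± 0.27). Dock6 had 170.1, 122 and 83.5 CPM in Cyp2b-null HFD, against 110.0, 81.9 and 122.7 CPM in Cyp2b-null ND (0.26 ± 0.28). Both genes overlapped between the diets there. The difference of the diet effect, WT minus Cyp2b-null, was 1.82 ± 0.39 for Dbp and -2.15 ± 0.40 for Dock6 (edgeR adjusted p = 0.407 and 0.406). It passed for 0 of all genes (342, 2.89%, at an unadjusted p below 0.05, and 11 called by DESeq2), so no gene was shown to respond to the diet differently between the genotypes in edgeR.

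Some WT differences recurred in the Cyp2b-null females and others did not. Chka differed by -0.92, Gstm3 by -0.77, Cyp3a11 by -0.64 and Fabp2 by 0.80 there, in the WT direction and at unadjusted p-values of 0.00598 to 0.0132 in edgeR. Arrdc3, Rgs16, Rassf4 and Prom1 had the other sign (-0.35, -1.14, -0.81 and 1.24). Of the 197 genes higher in WT females at an unadjusted p below 0.05, 135 had the same direction in Cyp2b-null females and 20 also such a p, and of the 215 lower genes 145 and 31. Another 9 and 7 had such a p in the opposite direction; in Cyp2b-null females 2.36% of all genes were higher and 2.44% lower at that p. Across all 11830 genes the diet differences of the genotypes had r = 0.131 and 53.5% had the same sign; genes are not independent replicates. The PPARα list had a median of 0.11 in Cyp2b-null females with 30 of 46 higher, and the CAR and PXR list one of -0.03 with 19 of 40 higher. The clock output list had a median of 0.11 there with 13 of 20 higher. Its mean summed level was 3216 CPM in Cyp2b-null HFD and 3222 CPM in Cyp2b-null ND, with overlap.

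WT males were set beside the females in a fit of the 12 WT libraries of both sexes, in which sex goes together with RNA extraction and library kit, so these cannot be told apart. Depth goes with sex as well. Deposited counts summed to 9.67 to 20.2 M in the WT male libraries, against 2.01 to 2.66 M in the WT female ones. The numbers of genes called in males and females therefore do not measure the size of the diet response. In males 21 of 14476 genes were called (0.145%), 11 higher (0.076%) and 10 lower (0.0691%) on HFD, and 16 of the 21 were tested in females. At an unadjusted p below 0.05 there were 1633 (11.3%). Of these 16, 13 had the same direction in females and 5 (31.2%) had an unadjusted p below 0.05 in that direction, against 3.48% of all genes in either direction. The 5 were Cyp3a11, Gstm3, Chka, Ppara and Vnn1. Their differences in males were -2.16, -2.31, -1.27, 1.15 and 1.83 (edgeR adjusted p = 0.0126, 0.0142, 0.0267, 0.0237 and 0.0126). Cyp3a11 had 622, 1346 and 597.5 CPM in WT HFD males and 4598, 3498 and 3370 CPM in WT ND males. Across all 14476 genes of this fit the diet differences of WT females and WT males had r = 0.122. The same sign was seen in 50.2% of them, and genes are not independent replicates.

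Dbp had 155.1, 126.6 and 212 CPM in WT HFD males, against 33.5, 74.1 and 138.3 CPM in WT ND males, which overlap. Dock6 had 31.8, 37.4 and 36.3 CPM in WT HFD males and 50.1, 52.8 and 50.8 CPM in WT ND males, which do not overlap (-0.54 ± 0.22, edgeR adjusted p = 0.365). Per3, Arntl and Rgs16 had male differences of 1.59, -2.10 and 2.09, with the same sign as in females. The clock output list had a male median of 0.88, the PPARα list one of 0.45 and the CAR and PXR list one of -0.07, with 19 of 44 higher.

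Cyp2b9 parted from this. It averaged 21.8 ± 15.8 CPM in WT HFD males and 0.208 ± 0.123 CPM in WT ND males (SD, n = 3 each; 6.61 ± 0.82, edgeR adjusted p = 0.0126), against 392.2 ± 108.7 CPM in WT HFD females and 450.4 ± 53.6 CPM in WT ND females. The difference of the diet effect, females minus males, was -6.81 (edgeR adjusted p = 0.335). That difference passed for 0 genes in edgeR (833, 5.75%, at an unadjusted p below 0.05, and 10 called by DESeq2).

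Lists of immune genes leaned higher on HFD in WT females, with no gene called. In bulk liver, more cells of a type and more RNA per cell cannot be told apart. Of the interferon response genes 25 of 31 were higher (median 0.55). At an unadjusted p below 0.05 there were 6 higher and 0 lower, against 1.67% and 1.82% of all genes. The median was 0.92 in libraries 2 and 3 alone and 0.12 between the libraries numbered 1, and the summed levels overlapped (906 to 1475 CPM in WT HFD, 746 to 1077 CPM in WT ND). Ifit3, an interferon-induced antiviral protein, had 31.3, 29.2 and 22.3 CPM in WT HFD, against 20.4, 8.50 and 10.1 CPM in WT ND (1.08 ± 0.40, edgeR adjusted p = 1.0). Antigen presentation genes were higher in 12 of 12 (median 0.60), and 4 of them had all HFD libraries above all ND libraries, against 3.89% of all genes. Only 1 of the 12 had an unadjusted p below 0.05 in edgeR. Their median was 0.795 in libraries 2 and 3 alone and 0.145 between the libraries numbered 1. The summed levels overlapped (2761 to 3230 CPM in WT HFD, 2300 to 3213 CPM in WT ND). H2-K1, a class I molecule, had 324, 403 and 338 CPM in WT HFD and 275.5, 307 and 275 CPM in WT ND (0.31 ± 0.26).

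Kupffer cell and macrophage markers lay on the same side, with 18 of 19 tested members of 24 higher (median 0.50). Their summed level was 528, 962 and 582 CPM in WT HFD and 474, 339 and 659 CPM in WT ND, which overlap. C1qa, a complement component of macrophages, had 58.4, 90.5 and 52.4 CPM in WT HFD, against 49.2, 25.5 and 49.6 CPM in WT ND (0.69 ± 0.29). Clec4f, which marks Kupffer cells, had 104.7, 162.7 and 92.9 CPM in WT HFD and 111.8, 60.0 and 123.6 CPM in WT ND, which overlap. The part of these markers in the interferon and antigen presentation differences was not tested. In Cyp2b-null females the interferon, antigen presentation and macrophage medians were 0.89, 0.65 and 0.78, and in WT males 0.02, -0.41 and 0.05 over members averaging at least 1 CPM there. Below that level in males were 3 of 34 interferon and 7 of 15 antigen presentation genes.

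Markers of other cells were mostly low. Of 10 neutrophil markers 0 were tested, with 6 at 0 counts, and of 11 pancreatic acinar markers 2 were tested, with 8 at 0 counts. Of 19 T, NK and B cell markers 2 were tested, Ptprc (CD45, on all white blood cells) and the chemokine Ccl5, with differences of 0.50 and 1.63. Their summed level was 14.3, 18.4 and 15.7 CPM in WT HFD, against 13.9, 6.00 and 8.41 CPM in WT ND, with no overlap, and its part in the immune differences was not tested. Of 11 cholangiocyte markers 3 were tested, Prom1 among them, and of 10 adipocyte markers 4, none with a call in edgeR's test over the 12 female libraries. Stellate cell and matrix genes were higher in 18 of 22 (median 0.27; -0.15 between the libraries numbered 1), with Col1a1 at 4.25, 6.26 and 9.08 CPM in WT HFD and 5.10, 4.50 and 3.78 CPM in WT ND. Sinusoidal endothelial markers were higher in 5 of 14 (median -0.11).

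**Figure D5:**
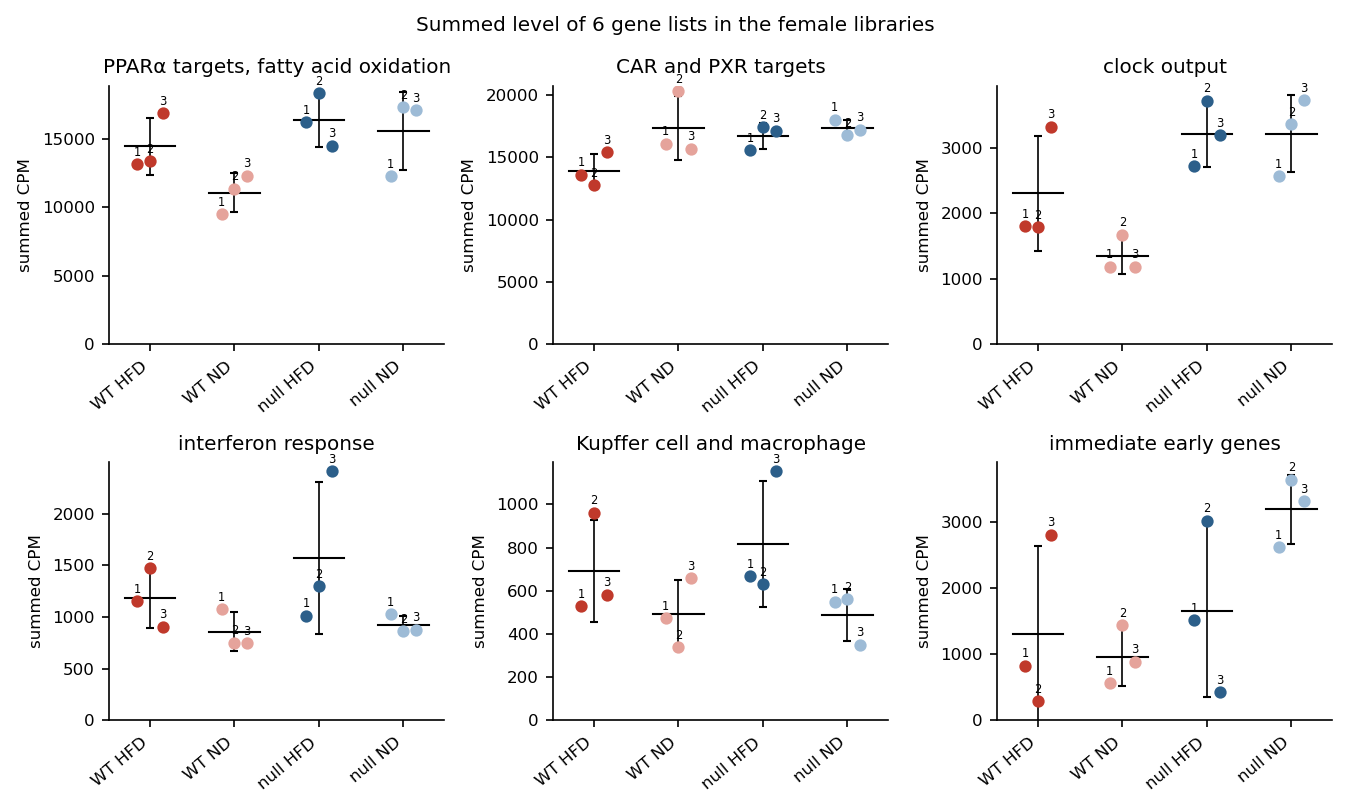
Summed level in CPM (vertical axes) of 6 gene lists in each of the 12 female libraries, by group (horizontal axes), with the replicate number beside each point. The WT groups do not overlap for the PPARα, CAR and PXR and clock output lists and overlap for the interferon, macrophage and immediate early lists.

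Immediate early genes, which are induced within minutes of a stimulus, had 19 of 21 members higher (median 0.74), but this rested on 1 library: without WT HFD 3 the median was -0.65. Their summed level was 825, 289 and 2808 CPM in WT HFD and 563, 1441 and 885 CPM in WT ND. Atf3, a stress-induced transcription factor, had 0.0, 2.08 and 172.5 CPM in WT HFD and 3.25, 12.5 and 4.62 CPM in WT ND. Mitochondrially encoded respiratory chain genes were lower in all 13 of 13 (median -0.40), none called. Their median was -0.70 between the libraries numbered 1 and -0.21 in libraries 2 and 3 alone, but 0.28 without WT ND 1. Their summed levels overlapped, at 40030 to 87840 CPM in WT HFD and 49180 to 149700 CPM in WT ND. In WT males 12 of 13 were higher (median 0.44).

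Other pathways held single genes with no overlap and no call. Ugdh, which makes the UDP-glucuronate used in glucuronidation, had 84.3, 70.9 and 89.2 CPM in WT HFD, against 145.2, 158.9 and 137.5 CPM in WT ND (-0.85 ± 0.20, edgeR adjusted p = 0.303). Tsc22d3, the glucocorticoid-induced leucine zipper protein GILZ, had 49.1, 63.8 and 63.6 CPM in WT HFD and 134.9, 105.5 and 86.2 CPM in WT ND (-0.89 ± 0.20, edgeR adjusted p = 0.303). Abcb11, the bile salt export pump, had 681, 545 and 429 CPM in WT HFD, against 844.5, 785 and 799 CPM in WT ND (-0.55 ± 0.22). Around them, 3 of 15 Nrf2 targets, 6 of 17 glucocorticoid targets, 9 of 24 bile acid genes and 10 of 35 genes of amino acid catabolism were higher, with medians of -0.07, -0.23, -0.17 and -0.13.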

How the data were processed

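Liver RNA of 24 libraries was sequenced; the deposited tables hold whole-number counts per gene, made by the authors. Per the submitters' processing notes the tools were FastQC, Trimmomatic, GSNAP, Subread and edgeR, with build GRCm38.p5; the notes as used here give neither versions nor the strand setting. Date-like names (25 of 46093 symbols) were left out of tests. Counts were filtered with filterByExpr, scaled with TMM and tested with edgeR 4.0.16 (limma 3.58.1, R 4.3.3; robust quasi-likelihood test, 1 term per group, Benjamini-Hochberg adjustment), after a test on simulated data. WT males were fitted with WT females in the 12 WT libraries of both sexes. DESeq2 1.42.0, other scalings and filters, a term for the library side, leaving out each library and a replicate block were alternatives. Same-numbered libraries deviated together in WT females (r = 0.564, 0.139 and 0.278) and WT males (0.126, 0.135 and 0.129). However, 2 differently numbered WT female pairs reached 0.319 and 0.22, and in Cyp2b-null females 1 of 3 same-numbered pairs did not deviate together (0.356, 0.312 and -0.129). Whether the numbers pair samples is therefore uncertain, and the main fit had no block. The library sides come from the counts they adjust. Genes were named by call, by the 10 largest rises and falls as described above, by the smallest p in each of 36 lists (up to 3 members), as Cyp2b genes, or as neighbours of a called gene; further list members, and Prom1 and the genes called in males, were chosen after their values were seen. Members and lists were chosen with earlier results of these data known. Results of some genes that the naming rule or the lists hold are not reported here.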

Additional observations from a re-analysis of the deposited data

How the results depend on the processing

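The 2 calls in WT females (1 higher, 1 lower) became 1 with RLE or upper-quartile scaling (0 lower in both), 39 with no filter (21 higher, 18 lower) and 23 with DESeq2 (13 higher, 10 lower). There were 0 calls in either direction in the 6 WT libraries alone without a block, and 0 with the replicate block over 12 libraries. The replicate block over the 6 WT libraries gave 15 (8 higher, 7 lower), the block within each genotype, chosen after seeing the data, 8 (2 and 6), the term for the library side 15 (9 and 6) and libraries 2 and 3 alone 9 (5 and 4). Leaving out 1 library gave 0 to 4 calls, 0 to 1 higher and 0 to 3 lower. Cyp2b-null females had 0 calls, and 30 with no filter, 3 with DESeq2, 1 with the side term and 1 with the block within genotype (0 to 0 without 1 library). The genotype difference had 0, and 23, 11, 2 and 3 under the same settings (0 to 1 without 1 library). WT males had 21, and 340 with no filter, 210 with DESeq2, 313 with the replicate block within each sex and 0 to 42 without 1 library. The sex difference had 0, and 14, 10 and 1 under the same settings and 0 to 2 without 1 library. The cause was not tested. Of 1927 alternative values of 115 named genes, 1830 kept direction and side of the threshold, 72 passed it newly and 18 lost it. The other 7, of 6 genes not called, had the opposite sign without 1 library. Leaving out 1 library gave a range of -2.66 (without WT HFD 3) to 3.86 for Atf3, -0.017 (without WT HFD 3) to 0.57 for Hbb-bs and -0.135 to 0.92 for Hba-a2 (-0.126 without WT ND 2). It gave -0.44 to 0.045 (without WT ND 3) for Dnase1l3, and without WT ND 1 0.034 was the highest of a range starting at -0.86 for ND2 and 0.058 of one starting at -1.18 for COX1. Of 594 list medians under the alternative settings, 54 had the other sign than in the main fit, and 21 of 35 lists kept their sign in every setting. Totals of 2.01 to 2.66 M counts limit genes of a few CPM, such as Per3 and Prom1, and 3 libraries a group limit every call.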
